A study of Sorghum bicolor with 34 samples.

Results

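EES05741 is a transcript of the sorghum gene SORBI_3004G284700, which the study pairs with the Arabidopsis thaliana gene AT4G00910. It is 1 of 47110 transcript IDs that were quantified by RNA-seq in every library, and it was chosen by its measured response to limiting phosphorus, lower in the root apex and higher in the elongation zone, in 8 of the 10 libraries. Those 2 responses are therefore given here as a description without a test. The sources used here attach no protein name, domain or function to EES05741, so it is called by its transcript ID throughout. The RefSeq gene table at hand matched none of the transcript IDs, and no genome position or sequence is given.

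Phosphate is taken up at the root surface and moves poorly through soil, so the architecture of the root system decides how much of it a plant can reach. When it runs short, plants switch on a set of phosphate starvation induced genes that remobilize phosphate from lipids and metabolites, release it by phosphatases and report its level through proteins with an SPX domain. Root regions differ in their part in this response, as cells divide near the tip, lengthen behind it and take on their mature functions further back.

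The RNA came from hydroponically grown seedlings of the sorghum reference line BTx623, harvested on day 10 under limiting phosphorus (LP, 2.5 μM phosphate) or sufficient phosphorus (SP, 45 μM phosphate). Seminal roots were cut at 2 cm from the tip to give the root apex and again at 4 cm to give the elongation zone, which the labels call intermediate, so both regions came from the same roots. Lateral roots were cut at 2 cm as well, and each replicate pooled 10 plants. The root apex and the elongation zone had 2 libraries at each phosphorus level and the lateral root apex had 1. For the lateral root apex this follows the sample labels, and the study's methods, which describe replicate libraries for all root tissues, disagree with them. Nothing in this set was mutant or transgenic. In bulk samples of this kind, fewer cells of a type and less RNA per cell cannot be told apart, and the region labels could not be checked against marker genes because the transcript IDs carried no gene descriptions.

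Total estimated counts were 10114584 to 19067049 per library. Root apex LP replicate 2 is given as whole root in its tissue field and as root apex in its title, and it was kept by its title. Fragments as kallisto estimated them were shorter, at 166.7 to 168.8 bases, in 4 libraries (the replicate 2 pair of the elongation zone and the lateral root pair) than in the other 6, at 185.4 to 189.8 bases. Elongation zone LP replicate 2 and the lateral root SP library lacked 142 and 320 transcripts, counted as those at 0 there and at 1 CPM or more in all other libraries. That number was 1 to 21 in the other 8 libraries.

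EES05741 was nearly undetected in the root apex under LP and was among the more abundant transcripts of the elongation zone under LP. In the root apex it had 1 and 3 counts in the LP libraries, against 33 and 44 counts in the SP libraries. In CPM (counts scaled to library size, with TMM factors, which correct for differences in library composition), these were 0.0996 and 0.196 CPM under LP and 2.17 and 2.40 CPM under SP. The LP and SP libraries did not overlap, and all 4 values were low.

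In the elongation zone EES05741 had 1803 and 1352 counts in the LP libraries, against 49 and 118 counts in the SP libraries. This was 86.5 and 86.8 CPM under LP and 3.62 and 5.16 CPM under SP. Both LP libraries stood far above both SP libraries, and the LP libraries had nearly the same CPM although 1 of them had the shorter fragments and the missing transcripts described above. That closeness came with the TMM factors, since CPM without them were 102 and 83.1 in the same LP libraries, and in TPM (a share of the library corrected for transcript length, without TMM) they were 62.2 and 44.3.

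In the lateral root apex, the region that the choice of EES05741 did not use, the LP library had 109 counts and the SP library 64. These were 7.72 CPM (95% counting interval 6.34 to 9.32) under LP and 5.51 CPM (4.25 to 7.04) under SP. The ratio of LP to SP was 1.40 with a 95% counting interval of 1.02 to 1.94. With the TMM factors taken as exact, the LP library was thus above the SP library by more than counting error. With 1 library per level these intervals do not cover the spread between samples.

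**Figure D1:**
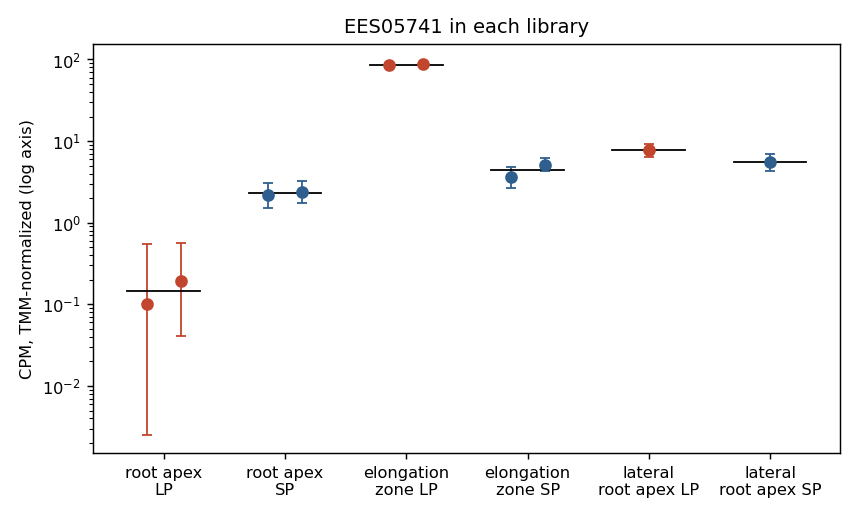
CPM of EES05741 in each of the 10 libraries on a log axis, LP in red and SP in blue; bars are exact 95% counting intervals and black lines are group means. The 2 LP libraries of the elongation zone sit near 87 CPM and the 2 LP libraries of the root apex at 0.0996 and 0.196 CPM, with every other library between 2.17 and 7.72 CPM.

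As group means, EES05741 was at 0.148 ± 0.0680 CPM in the root apex under LP and 2.29 ± 0.161 CPM under SP (SD, n = 2 each). The fitted log2 fold change of LP over SP there was -3.81 (SE 0.43, derived from edgeR's F statistic). By a second tool, DESeq2, it was -3.85 (SE 0.83). The smaller SE likely understates the uncertainty of a value that rests on so few LP counts. The ratio of summed counts, scaled by library size, put LP 14.6-fold below SP with a 95% counting interval of 5.47 to 54.8, which is wide because only 4 counts stood on the LP side. Over the 4 possible pairs of 1 SP and 1 LP library the same ratio ran from 11.1 to 24.1.

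In the elongation zone the means were 86.6 ± 0.252 CPM under LP and 4.39 ± 1.08 CPM under SP (SD, n = 2 each), and the log2 fold change of LP over SP was 4.30 (SE 0.34). The ratio of summed counts was 18.9 (95% counting interval 16.2 to 22.2), and pairs of 1 LP and 1 SP library gave 16.8 to 24.0. The response in the elongation zone minus that in the root apex was 8.11 on the log2 scale (SE 0.54), a descriptive value. This SE is likely too small as well, since it includes the root apex LP counts.

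The response of EES05741 in the lateral root apex was small and did not pass the test. The log2 fold change of LP over SP was 0.49 (SE 0.43), with an adjusted p of 0.561 by edgeR's quasi-likelihood test with Benjamini-Hochberg adjustment over 33039 transcripts, of which 1.78% were called in that comparison. The 95% interval of the fold ran from 0.690 to 2.84. With 1 library per level, neither a modest fall nor a rise of up to that size was thus separable from no change. The p rests on the spread seen between replicates elsewhere in the root, as the lateral root libraries have none. Of the tested transcripts, 13461 had a lateral root fold at or above that of EES05741, itself included. In TPM the lateral root libraries stood further apart, at 3.27 under LP and 1.67 under SP.

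The same counts can be read along the root at each phosphorus level. Under SP the elongation zone had more EES05741 than the root apex, with a log2 difference of 0.94 (SE 0.31), and neither region's libraries overlapped the other's. Under LP the log2 difference between the same regions was 9.05 (SE 0.46). DESeq2 gave 9.15 (SE 0.81) for it, so the smaller SE is likely too small here too. A gradient along the seminal root that was shallow with sufficient phosphate was thus steep with limiting phosphate.

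Ordered by CPM, the elongation zone under LP came first, followed by the lateral root apex under LP, the lateral root apex under SP, the elongation zone under SP, the root apex under SP and the root apex under LP. The lateral root LP and SP libraries, neighbours in this order, differed beyond counting error only, and this took the TMM factors as exact. They had no replicate to give their spread. The lateral root SP library lay close to the higher elongation zone SP library, which was inside its counting interval. The order in the middle also depended on the scale. In TPM the lateral root apex under LP and the elongation zone under SP had the same mean of 3.27, while the lateral root apex under SP, at 1.67, lay close to the root apex under SP at 1.38 ± 0.127 (SD, n = 2).

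The rank of EES05741 among detected transcripts shows the same change in other terms. By TPM it stood at the 92.6 and 88.6 percentiles in the elongation zone LP libraries, against the 44.6 and 51.7 percentiles in the SP libraries. In the root apex it stood at the 4.47 and 10.3 percentiles under LP and at the 37.7 and 39.5 percentiles under SP. It stood at the 57.3 percentile in the lateral root library under LP and at the 46.1 percentile under SP.

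Estimated counts of EES05741 were whole numbers in all 10 libraries, within a tolerance of 1e-06 counts. In kallisto output a fractional count arises where reads are divided between similar transcripts, and no such division was seen for EES05741 over its 3576 counts.

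Set against all tested transcripts, with EES05741 included in each count, a log2 fold change at or below that of EES05741 in the root apex was found in 1223 of 33039 and one at or above its value in the elongation zone in 1068. The 2 together were found in 103. In the root apex 60 transcripts were called lower under LP (0.182% of those tested), and in the elongation zone 137 were called higher (0.415%). Leaving EES05741 aside, as it was chosen on these values, 1 transcript was on both lists, KXG36521. That count moved widely, along with the length of both lists. By DESeq2 it was 49, from 756 transcripts called lower in the root apex and 1438 called higher in the elongation zone. It also moved when 1 library was left out. With any root apex library or any elongation zone SP library left out, the root apex list was empty, so no overlap was possible. KXG36521, for which the sources used here give no gene name, had log2 fold changes of LP over SP of -3.27 (root apex), 3.18 (elongation zone) and -0.17 (lateral roots).

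**Figure D2:**
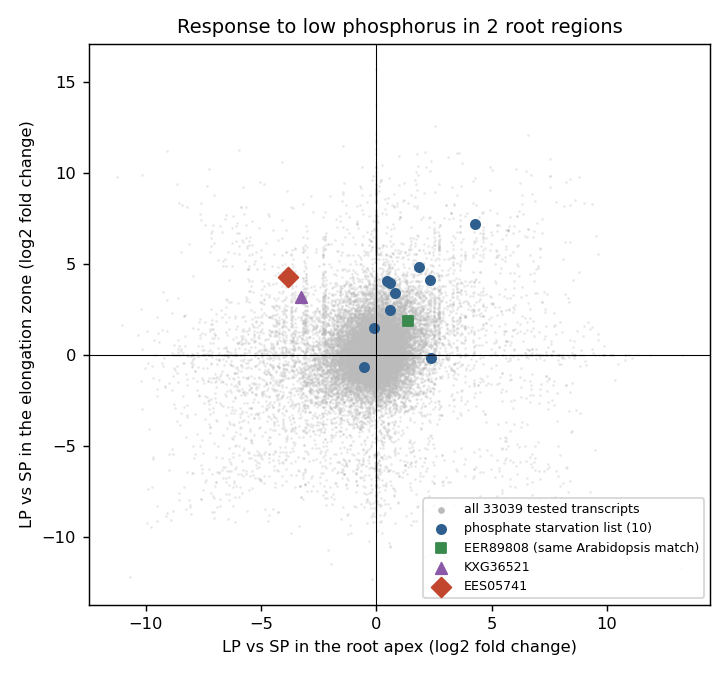
Log2 fold change of LP over SP in the root apex (x axis) and in the elongation zone (y axis) for each of the 33039 tested transcripts in grey, with named transcripts in colour. EES05741 lies at -3.81 and 4.30, at the upper left beside KXG36521, while EER89808 and 7 of the 10 phosphate starvation transcripts lie above 0 on both axes.

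The study pairs 2 further sorghum transcripts with AT4G00910, and neither had fewer counts under LP in the root apex together with more in the elongation zone. EER89808 (SORBI_3010G147200) had 92 and 139 counts in the root apex LP libraries, against 78 and 34 in the SP libraries. Its means there were 9.12 ± 0.0647 CPM under LP and 3.50 ± 2.32 CPM under SP (SD, n = 2 each). The LP libraries were the higher ones, in the direction opposite to EES05741, and the SP libraries differed widely from each other.

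In the elongation zone EER89808 had 91 and 28 counts in the LP libraries, against 13 and 17 in the SP libraries, or 3.08 ± 1.81 CPM under LP and 0.852 ± 0.154 CPM under SP (SD, n = 2 each). Its lateral root values were 190 counts (13.5 CPM) under LP and 39 counts (3.36 CPM) under SP. EER89808 had more CPM under LP than under SP in each region, and the libraries of the 2 levels did not overlap.

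None of these differences of EER89808 passed the test by edgeR. Its log2 fold change of LP over SP was 1.38 in the root apex (SE 0.65, adjusted p 0.588), and the 95% interval of the fold ran from 0.902 to 7.55. For the elongation zone the values were 1.86 (SE 0.67, adjusted p 0.277) and an interval of 1.20 to 11.0. Lateral roots gave 2.00 (SE 0.93, adjusted p 0.283) and an interval of 0.865 to 18.5. Single libraries moved these values: the root apex fold change was 2.29 without SP replicate 1 and 0.81 without SP replicate 2, and that of the elongation zone was 1.02 without LP replicate 1 and 2.36 without LP replicate 2. Of the transcripts tested, 0.218% were called in the root apex and 0.648% in the elongation zone, so few transcripts passed at all. Before adjustment, the p of EER89808 was 0.0287 in the elongation zone, 0.0702 in the root apex and 0.0696 in lateral roots by edgeR, and DESeq2 called it in none of the 3 regions.

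Along the root EER89808 ran the other way from EES05741, with less of it behind the root apex than within it. The log2 difference was -2.03 under SP (adjusted p 0.250 by edgeR, where 0.917% of transcripts were called) and -1.56 under LP (adjusted p 0.202, where 6.85% were called). Neither difference passed the test.

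EES12682 (SORBI_3006G181900) was close to the limit of detection. It had 18 and 2 counts in the elongation zone LP libraries, against 5 and 14 counts in the SP libraries. In the root apex it had 1 count in 1 LP library and 0 elsewhere, and it had 0 counts in both lateral root libraries. The elongation zone libraries of LP and SP overlapped, with a log2 fold change of 0.02 and an adjusted p of 1 by edgeR. A group of 3 sorghum transcripts paired with a second Arabidopsis gene, AT1G08430, was not testable: KXG26278, OQU81543 and OQU81544 had 1, 0 and 6 counts over all 10 libraries.

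The share of the summed TPM of the 3 AT4G00910 matches that EES05741 supplied thus changed with region and phosphorus level. In the elongation zone it was 94.3% and 97.9% under LP, against 72.8% and 78.5% under SP. In the root apex it was 1.10% and 2.14% under LP, against 30.2% and 56.9% under SP, with EER89808 supplying nearly all of the rest. Of the lateral root sum EES05741 supplied 36.9% under LP and 62.6% under SP, although its own TPM was the higher under LP, because EER89808 stood at 5.58 TPM under LP and 0.999 TPM under SP.

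**Figure D3:**
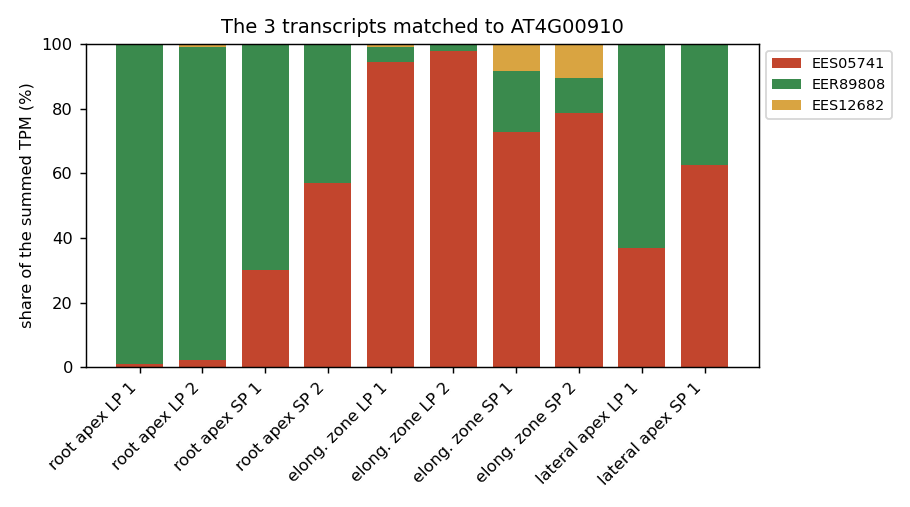
Share of the summed TPM of the 3 transcripts paired with AT4G00910, in percent, in each of the 10 libraries. EES05741 (red) makes up 72.8% to 97.9% in the 4 elongation zone libraries and 1.10% and 2.14% in the LP libraries of the root apex, where EER89808 (green) makes up nearly all of the rest.

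Summed over the 3 matches, the TPM of the elongation zone was 65.9 and 45.2 under LP, against 3.87 and 4.73 under SP. The sum in the root apex was 5.53 and 4.31 under LP, against 4.28 and 2.58 under SP. The groups of the root apex still did not overlap, but by a margin of 4.31 to 4.28 TPM only, so the lower level of EES05741 under LP did not appear in the summed level of these transcripts.

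Phosphate starvation transcripts named in the study were chosen there on these same samples, so they do not show which response is usual. Their direction is not independent evidence, and 10 of them were followed. In the elongation zone 6 of the 10 were called higher under LP (0.415% of all transcripts were) and none lower (0.233% of all were). The median log2 fold change was 3.67 against 0.01 for all tested transcripts. Of the 10 transcripts, 8 had a positive fold change, and the lowest value was -0.70. EES14277, with a glycosyl transferase domain of family 28, had the largest fold change of them, at 41.4 ± 0.874 CPM under LP and 0.279 ± 0.0237 CPM under SP (SD, n = 2 each; log2 fold change 7.18, adjusted p 0.00764). EES04719 and EER90017, both with an SPX domain, had log2 fold changes of 4.80 (adjusted p 0.0139) and 4.04 (adjusted p 0.0109), and EES18902, an inorganic pyrophosphatase, had 2.43 (adjusted p 0.0228). EES13381, a sugar phosphate transporter, had 3.95 (adjusted p 0.0251). EER97828, with a phosphoesterase domain of the calcineurin type, was at 39.6 ± 12.4 CPM under LP and 3.74 ± 0.894 CPM under SP (SD, n = 2 each; adjusted p 0.0251 by edgeR). The response of EES05741 in the elongation zone, 4.30, lay inside the range of these transcripts.

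The list and EES05741 differed in direction in the root apex. EES14277 was the 1 listed transcript called higher under LP (0.0363% of all transcripts were), with a log2 fold change of 4.28 (adjusted p 0.0311 by edgeR). None was called lower (0.182% of all were), so over all transcripts more were called lower than higher there. Of the 10 transcripts, 8 had a positive fold change, with a median of 0.72 against 0 for all tested transcripts and a lowest value of -0.53. EES05741, at -3.81, lay below all 10.

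Among lateral root values 6 of the 10 were called higher under LP (1.48% of all transcripts were) and none lower (0.303% of all were), and all 10 fold changes were positive. These calls compare 1 library with 1 library and borrow their spread from the replicates of the other regions. The median log2 fold change was 3.75 against 0.05 for all tested transcripts, or 3.62 with the 4 transcripts at 0 counts in the SP library set to the bound that 3 counts allow. For EES14277, at 357 counts under LP and 0 under SP, LP was at least 97.9-fold higher, and for EER92606, an inositol-tetrakisphosphate kinase called higher in this region (adjusted p 0.0214), at 83 counts under LP and 0 under SP, it was at least 22.8-fold higher. The lateral root SP library is the one that lacked 320 transcripts, and the part of this in the list's values was not tested. The response of EES05741 there, 0.49, lay below that of each listed transcript.

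The calls on the list changed when single libraries were left out, which leaves 1 library in a group. Without 1 elongation zone SP library or 1 root apex SP library, fewer or no listed transcripts were called. The same held over all transcripts for calls higher in the elongation zone, so this loss was not particular to the list. The call of EES14277 in the root apex was also lost when any 1 of the 4 root apex libraries was left out. The lateral root value of EES05741 was called in none of these fits.

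**Figure D4:**
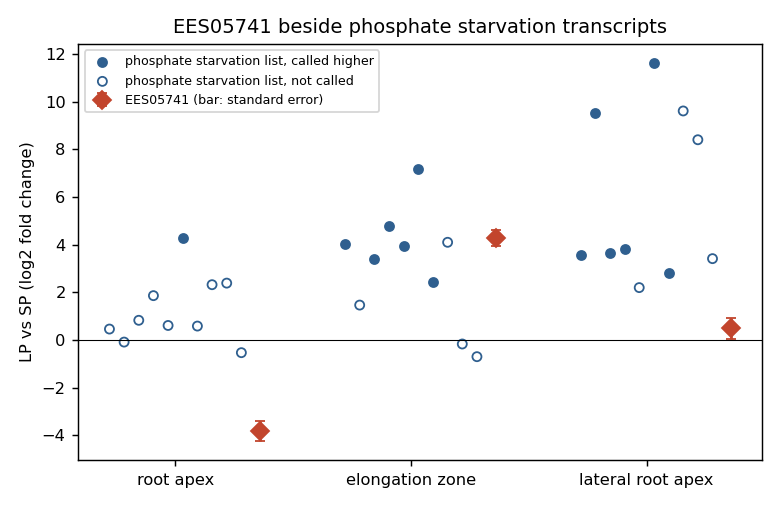
Log2 fold change of LP over SP in each root region for the 10 phosphate starvation transcripts in blue (filled where called by edgeR at an adjusted p under 0.05) and for EES05741 in red, with its standard error from edgeR's F statistic, likely too small in the root apex. EES05741 lies below all 10 in the root apex (-3.81), among them in the elongation zone (4.30) and below all 10 in the lateral root apex (0.49).

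Release of organic acids is a further root response to scarce phosphate. A malic oxidoreductase transcript (KXG33288) and a pair from the multi antimicrobial extrusion protein family (KXG22503 and EES03448), named in the study, were followed here. The sources used here do not show that any of the 3 releases organic acids, so their values are no readout of that release. By edgeR none of the 3 was called between LP and SP in any region. Without adjustment, 2 had a p under 0.05 for lateral roots, where 20.5% of all transcripts were, and they went opposite ways: EES03448 had a log2 fold change of -2.55, and KXG22503 had 9 counts under LP and 0 under SP. For the elongation zone there was 1 (14.6% of all transcripts), KXG22503 at -2.84, and for the root apex 0 (9.41% of all). DESeq2 called EES03448 in lateral roots, where it called 11.9% of all transcripts, and 0 of the 3 in the other regions. Under LP, KXG22503 was lower in the elongation zone than at the root apex, at 0.0480 ± 0.0678 CPM and 4.50 ± 2.13 CPM (SD, n = 2 each; adjusted p 0.0357 by edgeR, where 2.48% of transcripts were called lower). The elongation zone value rests on 2 counts, and the call of KXG22503 was lost with any 1 root apex library or any 1 elongation zone SP library left out (adjusted p 0.0748 to 0.128 by edgeR), and with a block for the fragment length of the libraries (adjusted p 0.0580). EES05741 had the opposite gradient.

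Transcripts with the profile most like that of EES05741 were looked for by Pearson's r of log2 CPM over the 10 libraries, among the 16754 other tested transcripts that averaged 5 CPM or more. The median r was -0.11, and 89 transcripts had an r above 0.9. These values describe likeness only, since all points share the same libraries and the libraries fall into 6 groups. The 8 closest were EES04176 (r = 0.980), KXG36521 (0.978), EER92874 and EER92868 (both 0.975), EER99221 (0.969), OQU87697 (0.965), KXG35381 (0.960) and EER94807 (0.959). None of them is paired with a gene name or domain in the sources used here, and EER92874 and EER92868 had identical counts in every library, so they stand for 1 profile that cannot be divided between their IDs.

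EES04176 put the 10 libraries in exactly the same order as EES05741 (Spearman's rho = 1) but over a much narrower range. It had 3.89 and 5.09 CPM in the root apex under LP, against 6.65 and 7.21 CPM under SP. In the elongation zone it had 16.7 and 22.9 CPM under LP, against 9.02 and 9.39 CPM under SP. Its LP libraries were below the SP libraries in the root apex and above them in the elongation zone, with log2 fold changes of -0.62 and 1.11.

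KXG36521 came closest to EES05741 in the size of its changes. It had 0.498 and 0.718 CPM in the root apex under LP, against 6.33 and 5.73 CPM under SP, and 38.3 and 52.1 CPM in the elongation zone under LP, against 5.40 and 4.59 CPM under SP. Lateral roots had 6.66 CPM of it under LP and 7.50 CPM under SP. Its LP libraries lay below the SP libraries in the root apex and above them in the elongation zone.

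Over the 8 transcripts, the log2 fold change of LP over SP was between -3.27 and -0.62 in the root apex and between 1.11 and 3.18 in the elongation zone, so each moved less than EES05741 in both regions. EER94807 was the next in size after KXG36521, at -1.98 in the root apex and 2.29 in the elongation zone. Lateral root fold changes of the 8 ran from -0.17 to 1.14.

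**Figure D5:**
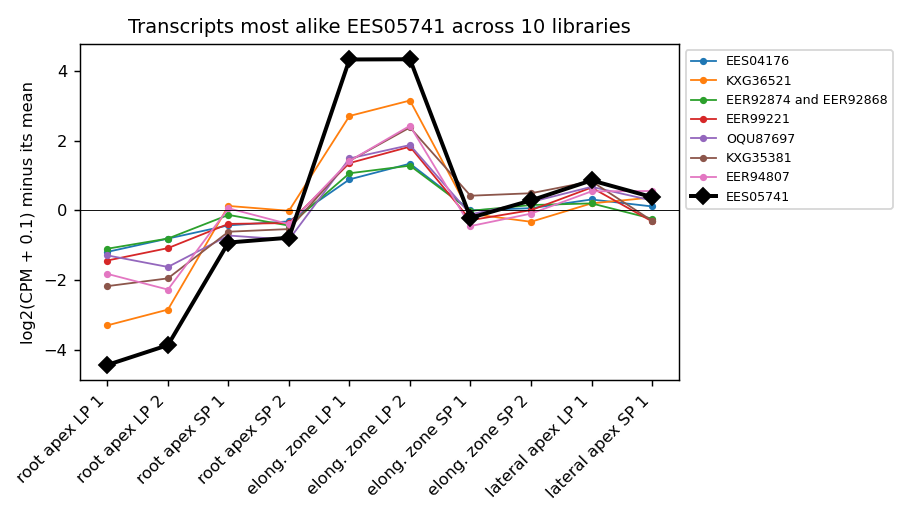
Log2(CPM + 0.1) minus its mean over the 10 libraries, for EES05741 in black and for the 8 transcripts most like it in colour, by library. EES05741 has the widest range, KXG36521 the next widest, and all of the lines are lowest in the root apex LP libraries and highest in the elongation zone LP libraries.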

How the data were processed

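RNA-seq libraries were grouped by region and phosphorus level from their labels. The authors used Trimmomatic for trimming, SAMtools for merging and kallisto for quantification, on sorghum genome v3.4.1 (rStudio v3.6.1), with replicates kept apart. The tables they deposited hold estimated counts without normalization, TPM from kallisto and lengths of the transcripts. The version of each other tool is not given in the sources used here. The deposited methylation tables hold the authors' own comparison of LP with SP (p-value, q-value and difference) and were not used. ChIP-seq was not analysed here.

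After rounding, the 10 libraries entered 1 fit of 6 groups in edgeR 4.0.16 under R 4.3.3 (limma 3.58.1), using TMM, filterByExpr and quasi-likelihood, which leaves 4 residual degrees of freedom. Of 47110 transcripts, 33039 (70.1%) passed the filter. EES05741 passed through the groups where it was high. The Benjamini-Hochberg adjustment covered every tested transcript, and calls needed an adjusted p under 0.05. The study's methods name DESeq2, and DESeq2 1.42.0 was run as an alternative, as were other normalization, filters, blocks, libraries and limma on log2(TPM + 0.5) and log2(TPM + 0.1). The edgeR script was checked on simulated counts. Standard errors were the log2 fold change divided by the square root of edgeR's F statistic, and intervals of fitted folds were built on them. They can be too small where counts are few. Counting intervals are exact at 95%, and PCR copies are not independent molecules. Replicates were pools of plants. The study's methods call each pool a biological replicate but do not say how far these were separate cultures, so p-values measure the spread between these samples. Named transcripts were EES05741, those paired with AT4G00910 or AT1G08430, listed transcripts where called, and the 8 most alike among those averaging 5 CPM or more. KXG33288 and EES03448 are named outside this rule, as members of a list of 3. EES05741 and the lists were chosen with earlier results of these data known.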

Additional observations from a re-analysis of the deposited data

Results flagged for a closer look

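EES05741 was picked out because both of its LP libraries lay below both SP libraries in the root apex and above both in the elongation zone. Its response in the elongation zone minus that in the root apex was 8.11 on the log2 scale. The same opposite movement, library by library, was seen in all 8 of the transcripts most like it. Their differences of response were 1.73 for EES04176, 6.45 for KXG36521, 1.78 for EER92874 and likewise 1.78 for EER92868, 2.62 for EER99221, 2.29 for OQU87697, 3.04 for KXG35381 and 4.28 for EER94807. None of these differences was tested, because EES05741 was chosen for this movement and the others for their likeness to it.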

How the results depend on the processing

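EES05741 kept its direction in each comparison under every alternative run. In the root apex and the elongation zone this was built in, since it was picked for LP and SP libraries that did not overlap there. The kept direction is thus no support for those 2 responses. On log2(TPM + 0.5) and log2(TPM + 0.1), limma gave -1.70 and -3.07 for LP over SP in the root apex, 3.82 and 3.98 in the elongation zone, and 6.52 and 8.22 for the elongation zone over the root apex under LP. The pseudocount is large beside TPM values under 0.1, which shrinks folds against the root apex LP libraries. Leaving out 1 library at a time gave -4.42 to -3.50 in the root apex, 4.02 to 4.54 in the elongation zone, 0.70 to 1.22 for the elongation zone over the root apex under SP and 8.73 to 9.65 under LP. In the lateral root apex the log2 fold change was 0.42 to 0.92 with an adjusted p of 0.434 to 0.709 by edgeR, DESeq2 or limma, never called.

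With the replicate number as a block the values were -3.84 (root apex), 4.32 (elongation zone) and 0.49 (lateral roots), the elongation zone over the root apex was 0.93 under SP and 9.09 under LP, and 0 listed phosphate starvation transcripts were called in the root apex. Same-numbered libraries deviated from their group means with a correlation of 0.00594 in the root apex and 0.135 in the elongation zone, between LP and SP. With 2 pairs a region this does not show that the numbers pair LP with SP libraries. Elongation zone replicate 2 of LP and of SP share the shorter fragments, and whether same-numbered libraries of both seminal root regions came from the same plants is not given. A block for fragment length, chosen after seeing the data, gave -3.81, 4.32 and 0.49.

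Over all transcripts, the number called lower in the root apex was 60 by edgeR and 756 by DESeq2, and the number called higher in the elongation zone was 137 and 1438. Leaving EES05741 aside, as it was chosen on these values, transcripts on both lists were 1 by edgeR, 4 with no filter and 3 by limma at the larger pseudocount. With either block there were 0, but the root apex list was then shorter, at 2 with the replicate block and 31 with the fragment length block. The count of listed transcripts called higher was 2 in the root apex by DESeq2, which called 399 of all 33039 transcripts higher there, against 12 by edgeR. With only the libraries of the region compared it was 0 in the root apex and 0 in the elongation zone. The share of all transcripts called in those fits is not given here. Leaving out 1 library at a time gave 0 to 1 in the root apex and 0 to 7 both in lateral roots and behind the root apex. EER89808 gave 0.81 to 2.29 in the root apex and 1.02 to 2.36 in the elongation zone leaving out 1 library at a time. EES12682, at 39 counts in all of the elongation zone, changed sign there: -0.10 with the replicate block, -0.13 and -0.43 by limma at the larger and the smaller pseudocount, -0.40 with the fragment length block, and -1.94 to 0.79 leaving out 1 library at a time. The cause of these changes was not tested. Low counts limit the root apex values most, where LP rests on 4 counts.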
